A study of Mus musculus with 21 samples.

Results

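The inner root sheath keratins described here are 8 mouse genes, Krt25, Krt26, Krt27, Krt28, Krt71, Krt72, Krt73 and Krt74, taken by gene name from a count table of 23713 genes. RNA was measured by bulk sequencing of polyA RNA in keratinocytes scraped and strained from the skin of mouse tails. Tumours were basal cell carcinomas (BCC) of 3 models, which the labels call SmoM2, Gnas-eKO and PKI, and each model had its own tumour-free control mice (Con). Each model had 3 Con and 4 BCC libraries, 21 in all. Cells were collected at day 29 after induction in SmoM2 (batch A), at day 42 in Gnas-eKO (batch B) and at day 57 in PKI (batch C). Between models, day and batch cannot be told apart from the model; within a model, all libraries share both. The labels used here give no driver, allele, strain, age or inducing agent for any group, and do not say what genotype or treatment the Con mice carried. In the column headers every library has a code of its own, which reads like an animal number but is not explained in the labels. SmoM2 Con and Gnas-eKO codes begin with the same letters, and SmoM2 BCC codes with others; in SmoM2, tumour and this difference in naming cannot be told apart. Libraries are taken as separate mice on the strength of these codes, and if that reading is wrong, p-values measure only the spread between libraries.

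The hair follicle is built of concentric layers, and the inner root sheath is the sleeve that surrounds and moulds the growing hair shaft. Keratins form filaments only as pairs of a type I (acidic) and a type II (basic) chain. Krt25, Krt26, Krt27 and Krt28 are the type I keratins of the sheath and Krt71, Krt72, Krt73 and Krt74 the type II keratins. In human follicles Krt25, Krt27, Krt28 and Krt71 have been described in all layers of the sheath, Krt26, Krt72 and Krt73 in its cuticle, and Krt74 in the Huxley layer. Mutations of mouse Krt25 and Krt71 give wavy or curly coats. In interfollicular epidermis other keratins predominate, such as Krt5 in the basal layer and Krt10 above it. Basal cell carcinomas are driven by Hedgehog signalling and share features with follicular cells.

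All 8 genes lie on the minus strand of GRCm38 (mm10), each type in a row of its own. On chromosome 11, Krt25 (ENSMUSG00000035831) spans 99315516 to 99322951, Krt26 (ENSMUSG00000075570) 99328550 to 99337966, Krt27 (ENSMUSG00000017588) 99345565 to 99351104 and Krt28 (ENSMUSG00000055937) 99364872 to 99374903. On chromosome 15, Krt71 (ENSMUSG00000051879) spans 101733949 to 101743109, Krt74 (ENSMUSG00000067596) 101754259 to 101763504, Krt72 (ENSMUSG00000056605) 101776172 to 101786460 and Krt73 (ENSMUSG00000063661) 101793308 to 101802346. No other annotated gene overlaps any of the 8. Krt74 is annotated in the mouse as a transcribed unitary pseudogene, and the other 7 are protein coding.

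The 250 bases before the RefSeq start (GRCm38.p6) were read for 7 of the 8 genes, and 4 are printed because these genes moved together in the comparisons that follow. They are Krt25 (chr11:99322952-99323201), with the lowest fold change of the 7 in PKI, Krt26 (chr11:99337966-99338215), with the highest, Krt71 (chr15:101743098-101743347), the most abundant type II gene, and Krt73 (chr15:101802361-101802610), the last type II gene of the row. Each runs 5′ to 3′ on the minus strand and ends at the base before the start site. Capitals mark TATAAA and AGATAA.
Krt25: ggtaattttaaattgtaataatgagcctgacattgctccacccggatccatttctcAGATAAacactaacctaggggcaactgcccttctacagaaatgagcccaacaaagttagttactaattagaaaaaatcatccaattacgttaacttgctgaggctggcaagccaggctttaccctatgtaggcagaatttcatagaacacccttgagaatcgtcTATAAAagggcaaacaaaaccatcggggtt
Krt26: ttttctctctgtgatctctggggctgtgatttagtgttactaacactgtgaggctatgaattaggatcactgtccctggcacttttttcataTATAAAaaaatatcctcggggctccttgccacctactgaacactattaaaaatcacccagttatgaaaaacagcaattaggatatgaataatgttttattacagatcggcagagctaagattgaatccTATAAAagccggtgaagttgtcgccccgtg
Krt71: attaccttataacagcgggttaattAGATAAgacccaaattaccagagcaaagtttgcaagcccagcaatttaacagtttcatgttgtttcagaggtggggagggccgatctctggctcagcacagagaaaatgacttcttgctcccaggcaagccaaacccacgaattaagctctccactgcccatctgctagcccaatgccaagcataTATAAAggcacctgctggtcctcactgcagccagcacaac
Krt73: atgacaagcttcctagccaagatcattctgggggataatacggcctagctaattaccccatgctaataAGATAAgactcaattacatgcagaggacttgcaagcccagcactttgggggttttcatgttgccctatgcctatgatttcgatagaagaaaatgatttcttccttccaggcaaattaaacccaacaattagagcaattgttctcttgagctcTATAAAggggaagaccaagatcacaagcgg

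The word TATAAA occurred, on either strand, in the 250 bases of 7 of the 7 genes, against 12.97% of 27025 mouse promoters of that length. It began at base -30 in Krt25, Krt28 and Krt73, at -40 in Krt71 and at -15 in Krt27, and it occurred 2 times in Krt26. In Krt72 it lay on the opposite strand at -203. Positions count from the RefSeq start. For Krt26, Krt27, Krt71, Krt72 and Krt73 this start is not at the gene end given above, so their positions depend on the annotation used. AGATAA, a form of the GATA word, occurred in 4 of the 7 genes (Krt25, Krt27, Krt71 and Krt73) against 10.25% of promoters, and TGATAA in Krt27 alone, against 8.159%. TAATTA, a homeodomain word that reads the same on both strands, occurred in 4 of the 7 against 4.903%. CTTTGAT, a form of the LEF and TCF word, occurred in 0 of 7 against 3.227%, and GACCACCCA, a form of the GLI word, in 0 of 7 against 0.2109%. TAATTA and AGATAA can share bases, as in the Krt71 sequence. Krt71 and Krt73 share the unbroken run ttgcaagcccagca and aligned at 67.05% identity over 176 columns. Krt25 and Krt27 aligned over more columns, 220, at 63.18% identity. Unrelated promoters were not aligned, so these identities have no background to be read against. The words were chosen after the sequences had been partly seen, and a match describes letters in a window, not a binding site.

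Levels are given as CPM, the counts of a gene scaled to the library's TMM-adjusted total. Library totals ran from 16645858 to 22251132 counts, so that 3 counts correspond to at most 0.189 CPM. As a check of the labelled cell type, 6 keratinocyte markers summed to between 25140 and 69790 CPM in every library, while 3 skeletal muscle markers summed to at most 1.136 CPM. In SmoM2 the keratinocyte sum was 50490 to 67700 CPM in Con and 34490 to 49380 CPM in BCC. In Gnas-eKO it was 52900 to 63960 CPM in Con and 25140 to 46020 CPM in BCC, and in PKI the groups overlapped. The part of these differences in the keratin levels was not tested. On the first principal component of log2 CPM (30.2% of the variance) 11 BCC libraries lay between 32.4 and 59.4 and the 9 Con libraries between -57.2 and -40.4. Gnas-eKO BCC replicate 2 stood apart from the other BCC libraries, at -20.4. For the keratins the PKI controls were split. Krt25 was at 58.8 CPM in PKI Con replicate 1, inside the 29.4 to 91.5 CPM of the 6 controls of the other models, and at 3.92 and 4.26 CPM in replicates 2 and 3, below all of them. Krt71 was split alike, with 66.4 CPM against 5.75 and 6.07 CPM, where the other 6 controls ran from 34.6 to 111.5 CPM. The sizes of the PKI fold changes depend on these low controls, and the larger values without replicate 1 use them alone. The lowest PKI BCC library (289 CPM for Krt25, 499 CPM for Krt71) was above every one of the 17 other libraries, across batches.

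Tail keratinocytes of all 6 groups held inner root sheath keratin RNA, and in PKI tumours it was far more abundant than in PKI controls. In PKI Krt25, Krt27, Krt28, Krt71 and Krt73 rose, by 15.1-fold (Krt25) to 28.7-fold (Krt27), where 18.7% of all genes were called higher. Krt26 (240.5-fold) and Krt72 rose too but are not counted, as they passed the filter on low counts only through the PKI tumours. In SmoM2, where 29.7% of all genes were called, none of the 7 testable genes passed the test. Their log2 fold changes lay between -1.64 and -0.33. None passed in Gnas-eKO either, where 1.63% of all genes were called and the 7 lay between -0.39 and 0.95. The eighth gene, Krt74, was too low to test in any model.

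**Figure D1:**
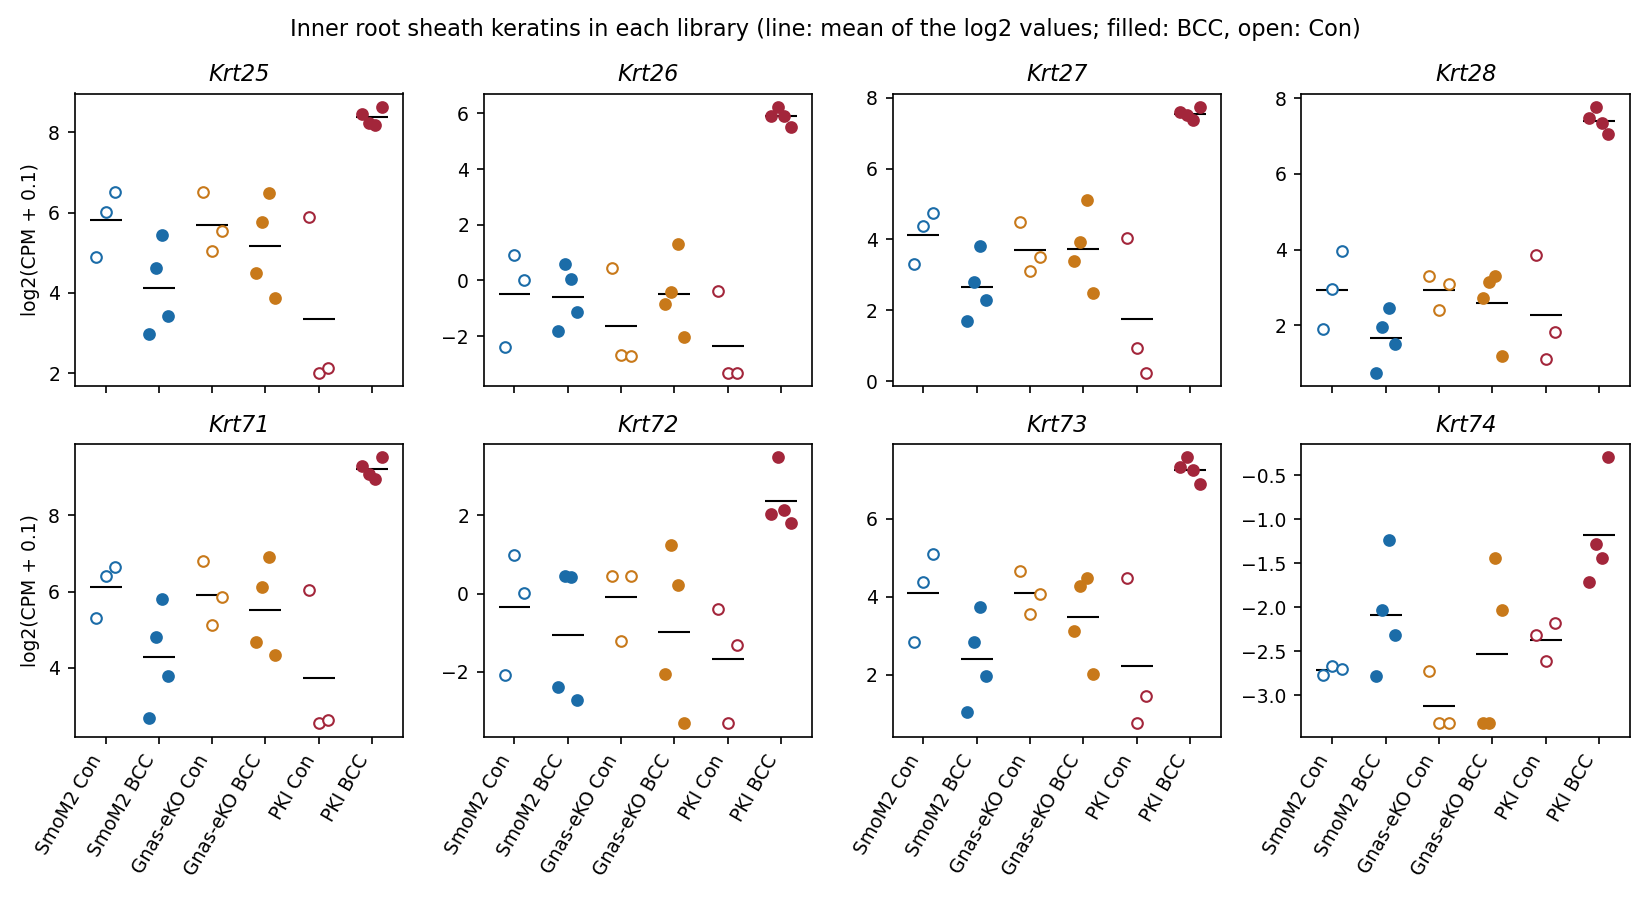
Level of each inner root sheath keratin in each of the 21 libraries, as log2 of CPM plus 0.1 (vertical axis, scaled per gene), by group (horizontal axis). Open points are Con, filled points BCC, and lines the mean of the log2 values; the 4 PKI BCC libraries lie above all 3 PKI Con libraries in every panel, and PKI Con replicate 1 lies above the other PKI Con libraries in every panel but that of Krt74.

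Among the type I genes, Krt25 was the most abundant. In PKI it stood at 58.8, 3.92 and 4.26 CPM in Con replicates 1 to 3 and at 352, 303, 289 and 398 CPM in BCC replicates 1 to 4. Every tumour library was above every control, although the first control lay far above the other 2. The log2 fold change was 3.91 (SE 1.09, edgeR quasi-likelihood test, Benjamini-Hochberg adjusted p = 0.0393). This call was the least secure of the 7: it was lost in 6 of 7 fits that left out 1 library, with adjusted p up to 0.0932, and was made without PKI Con replicate 1 (log2 fold change 6.36, SE 0.20, adjusted p = 1.64e-06).

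Krt27, which like Krt25 is found throughout the sheath, gave 16.4, 1.83 and 1.08 CPM in the PKI controls and 192, 184, 164 and 214 CPM in the tumours. Controls and tumours did not overlap. The log2 fold change of Krt27 was 4.84 (SE 0.91, adjusted p = 0.00994), and 7.02 without PKI Con replicate 1. Krt25 and Krt27 share an exact stretch of 105 transcript bases, longer than any other pair of the 8, and their counts were not whole numbers in 18 of 21 libraries each, whereas their sum was not whole in 4 (tolerance 0.01). Reads were thus split between them by estimation, and each level carries that uncertainty. Summed into 1 gene, an alternative added after the data were seen, they rose in PKI by 4.20 on the log2 scale (SE 1.11, adjusted p = 0.033).

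Krt28 was measured at 14.3, 2.08 and 3.42 CPM in PKI Con and at 176.5, 218.0, 161 and 134 CPM in PKI BCC. Again the groups did not overlap and the first control was the highest. Its log2 fold change was 4.69 (SE 0.68, adjusted p = 0.00383), and 5.96 without PKI Con replicate 1.

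Krt26, a keratin of the sheath cuticle, had 0.659 CPM in PKI Con replicate 1 and 0 counts in the other 2 controls, and 59.9, 75.5, 59.9 and 45.8 CPM in the tumours. The log2 fold change was 7.91 (SE 0.59, adjusted p = 0.00022), and 15 of the 16397 genes tested in PKI had a larger one. Without PKI Con replicate 1 the fitted value was 13.14, which depends on the prior count and is no bound. Against the 2 controls without a count, the tumour mean of 60.2 CPM was at least 318.8-fold higher, taking 3 counts per library as the floor. With limma on the authors' normalized values plus 1, the log2 difference of Krt26 was 5.67 (adjusted p = 3.33e-06), a scale that understates the change of low genes.

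Of the type II genes, Krt71 was the most abundant. It measured 66.4, 5.75 and 6.07 CPM in the PKI controls and 626, 545, 499 and 733 CPM in the tumours. The lowest tumour library lay above the highest control, which was again replicate 1. Krt71 rose by 4.53 on the log2 scale (SE 1.06, adjusted p = 0.0214), and by 6.67 without PKI Con replicate 1. The call was lost without PKI BCC replicate 1 (adjusted p = 0.0591) and without PKI BCC replicate 4 (adjusted p = 0.0517).

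Krt73 stood at 22.2, 1.58 and 2.64 CPM in PKI Con and at 159.5, 189, 151 and 118 CPM in PKI BCC, with no overlap. Its log2 fold change was 4.12 (SE 0.92, adjusted p = 0.0182). It was 6.19 without PKI Con replicate 1, and the call was lost without PKI BCC replicate 1 (adjusted p = 0.0531).

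Krt72 was scarce in every group. It had 0.659, 0 and 0.300 CPM in the PKI controls and 4.01, 11.1, 4.32 and 3.40 CPM in the tumours. All 4 tumours were above the controls, and BCC replicate 2 was well above the other 3. Krt72 rose by 4.07 on the log2 scale (SE 0.78, adjusted p = 0.00564), and by 5.16 without PKI Con replicate 1. With limma on the authors' normalized values plus 1 it was 2.25 (adjusted p = 0.00171).

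Krt74, the pseudogene, gave 29 counts over the 4 PKI BCC libraries (0.205 to 0.713 CPM) and 5 over the 3 PKI Con libraries (0.0632 to 0.120 CPM). It did not pass the filter on low counts, so no fold change is given. It shares an exact run of 88 transcript bases with Krt71, so that a few of its counts may belong to Krt71.

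The calls in PKI were read against all genes tested there. Of 16397 genes 34.5% were called and 18.7% were called higher, and 22.4% had all BCC libraries above all Con libraries, as each of the 8 keratins did. Krt26 and Krt72 passed the filter on low counts in PKI only through the BCC libraries, where they are high, so their calls are not counted as support. With no filter their adjusted p were 0.000627 and 0.0105. The other 5 keratins, Krt25, Krt27, Krt28, Krt71 and Krt73, were called higher, with log2 fold changes from 3.91 to 4.84, where 183 genes (1.12%) were at or above 3.91. In bulk RNA, more cells of a kind and more RNA per cell cannot be told apart.

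**Figure D2:**
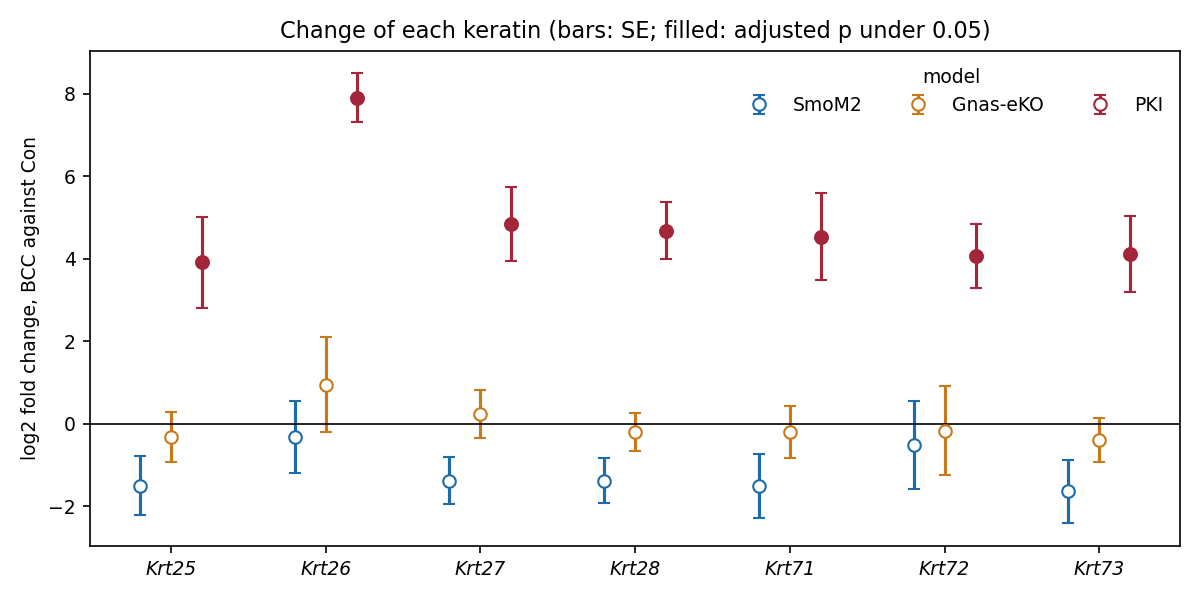
Log2 fold change of BCC against Con (vertical axis) for the 7 testable keratins (horizontal axis) in the 3 models, by colour. Bars are standard errors and filled points passed adjusted p under 0.05; the PKI points are all filled and lie between 3.91 and 7.91, while the SmoM2 points lie below 0 and the Gnas-eKO points on both sides of 0, all open.

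SmoM2 tumours gave lower mean levels of the 7 genes than their controls, but within the spread of the libraries. Krt25 stood at 29.4, 64.8 and 91.5 CPM in the SmoM2 controls and at 7.69, 24.3, 43.6 and 10.6 CPM in the tumours. The highest tumour was above the lowest control, so the groups overlapped. The log2 fold change of Krt25 was -1.51 (SE 0.72, adjusted p = 0.182).

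Krt71 showed the same arrangement in SmoM2, with 39.9, 84.6 and 100.4 CPM in Con and 6.38, 28.2, 56.3 and 13.8 CPM in BCC. Tumour replicate 3 lay above control replicate 1. Its log2 fold change was -1.50 (SE 0.77, adjusted p = 0.213). Krt27 (-1.38, adjusted p = 0.12), Krt28 (-1.38, adjusted p = 0.103) and Krt73 (-1.64, adjusted p = 0.173) gave values of like size, whereas Krt26 (-0.33) and Krt72 (-0.52) had adjusted p of 0.818 and 0.766.

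In SmoM2, where 29.7% of 16370 genes were called, 0 of the 7 keratins were called by edgeR. At an unadjusted p under 0.05 there were 2, Krt27 and Krt28, along with 6606 of the 16370 genes. DESeq2 called 1, Krt28 (adjusted p = 0.0126), and 5307 genes in all. All 8 genes overlapped between the groups, while 38.8% of all genes had groups that did not. Leaving out 1 library gave 1 call in each of 2 fits: Krt28 without SmoM2 Con replicate 1 (adjusted p = 0.0323) and Krt27 without SmoM2 BCC replicate 3 (adjusted p = 0.0204).

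Gnas-eKO tumours and controls overlapped in all 8 genes. Krt25 was at 91.4, 32.6 and 46.8 CPM in the Gnas-eKO controls and at 22.6, 54.7, 89.1 and 14.5 CPM in the tumours. Krt71 ran from 34.6 to 111.5 CPM over the controls and from 20.1 to 119 CPM over the tumours. For Krt25, 2 tumours lay below all controls and 2 within their range, and for Krt71 tumours lay on both sides of the controls, with overlap in both genes. The log2 fold changes were -0.33 for Krt25 (SE 0.60, adjusted p = 0.813) and -0.21 for Krt71 (SE 0.63, adjusted p = 0.89).

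Adjusted p ran from 0.706 (Krt26, log2 fold change 0.95) to 0.953 (Krt72, -0.17) over the 7 genes in Gnas-eKO. By edgeR 0 of 7 were called and 0 had an unadjusted p under 0.05, and DESeq2 called 0, where edgeR called 1.63% of 16409 genes. Of all genes 19.7% did not overlap between the groups. The calls over all genes moved from 267 to 1910 without Gnas-eKO BCC replicate 2, to 0 without Con replicate 1 or 2, to 4 without Con replicate 3, and to 38 and 59 without BCC replicates 1 and 4. Those among the keratins were 0 in each of these fits. Without BCC replicate 2 the 0 covers 6 keratins, as Krt26 was not tested, with Krt25 at -0.43 and Krt71 at -0.30. In simulated counts for this comparison the test recovered 34% of 2-fold and 74% of 4-fold changes, against 63% and 86% for PKI. These shares are not specific to the keratins, for which recovery was not tested. The SE of the 7 keratins in Gnas-eKO ran from 0.46 (Krt28) to 1.15 (Krt26), and keratin changes of either size could be missed.

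The differences between models were tested directly, as the BCC effect of 1 model minus that of another. The PKI effect exceeded the SmoM2 effect for 7 of 7 genes, where 24.9% of 17261 genes were called and 12.6% called higher. The difference ran from 4.59 (Krt72, SE 1.47, adjusted p = 0.0384) to 8.21 (Krt26, SE 1.29, adjusted p = 0.00115) on the log2 scale. Without PKI Con replicate 1 the differences were larger, from 5.69 (Krt72, adjusted p = 0.045) to 8.41 (Krt27), with Krt25 at 7.87, and 7 were called. The fitted 13.51 for Krt26 is no bound, since the remaining PKI controls have 0 counts of it. For Krt72 the call was lost in 7 of 14 fits that left out 1 library and in 2 of 6 other alternatives. The other 6 genes were called in every fit of both kinds.

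The PKI effect also exceeded the Gnas-eKO effect for 5 of the 7 genes, where 9.06% of 17254 genes were called and 4.49% called higher. The difference was 7.02 for Krt26 (SE 1.63, adjusted p = 0.0217), 4.91 for Krt28 (adjusted p = 0.00564), 4.64 for Krt27 (adjusted p = 0.0273), 4.75 for Krt71 (adjusted p = 0.0356) and 4.53 for Krt73 (adjusted p = 0.0272). Krt25 (4.25, adjusted p = 0.0569) and Krt72 (4.27, adjusted p = 0.0918) missed the threshold with differences of similar size. Krt28 was called in all 14 fits without 1 library, Krt26 in 13, Krt27 in 10, Krt73 in 9 and Krt71 in 4. Without Gnas-eKO Con replicate 1 only Krt28 was called, and Krt26 was at 4.03 with adjusted p = 0.556. Without PKI Con replicate 1, 6 were called, Krt25 among them (6.69, adjusted p = 0.00657). Krt72 was not (5.34, adjusted p = 0.0978). Without Gnas-eKO Con replicate 2 there were 3 calls, and without PKI Con replicate 2, PKI Con replicate 3 or PKI BCC replicate 2 there were 2 each.

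The Gnas-eKO and SmoM2 effects differed for 0 of 7 genes by edgeR (0 at an unadjusted p under 0.05, 0 by DESeq2), where 0.175% of 17151 genes were called. The differences were 0.37 for Krt72 and at most 1.61 (Krt27) for the other 6, with adjusted p from 0.645 to 0.964. These 3 contrasts share libraries with one another, since each model enters 2 of them.

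Levels of different genes were compared per kilobase of annotated exon. In PKI tumours the order was Krt71 (275 ± 47.0 CPM per kb, SD, n = 4), Krt25 (169 ± 25.0), Krt27 (122 ± 13.4), Krt28 (106 ± 21.7), Krt73 (71.4 ± 13.5), Krt26 (16.4 ± 3.31), Krt72 (2.86 ± 1.81) and Krt74 (0.227). The libraries of Krt71, Krt25 and Krt27 did not overlap, while those of Krt27 and Krt28 did, as did those of Krt28 and Krt73. In SmoM2 controls Krt71 (34.3 ± 14.4 CPM per kb, SD, n = 3) and Krt25 (31.1 ± 15.7) overlapped. Krt27 (12.2), Krt73 (9.47) and Krt28 (5.50) followed, then Krt72 (0.493), Krt26 (0.254) and Krt74 (0.0318).

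The PKI tumours were also the most even group for the abundant genes. Krt25 differed 1.38-fold between the highest and lowest of the 4 PKI BCC libraries, against 15.0-fold over the 3 PKI Con libraries and 2.80- to 6.14-fold in the 4 groups of the other models. Krt71 differed 1.47-fold in PKI BCC, 11.6-fold in PKI Con and 2.52- to 8.83-fold in the other 4 groups. This evenness is a description of 3 or 4 libraries per group and was not tested.

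**Figure D3:**
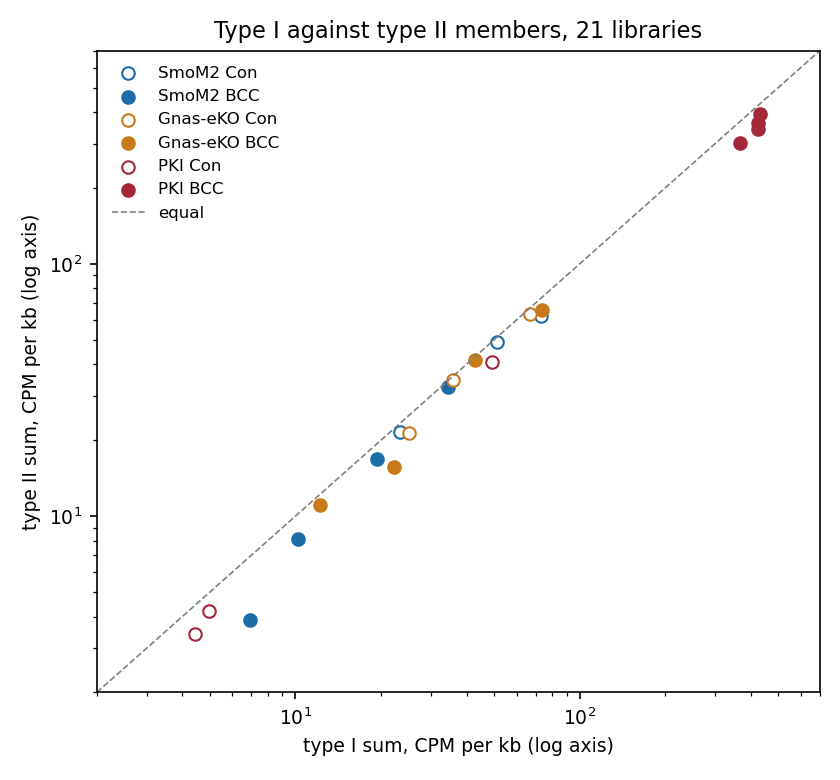
Summed level of the 4 type I keratins (horizontal axis) against that of the 4 type II keratins (vertical axis), both in CPM per kb on log axes, 1 point per library. Points follow the dashed line of equality from 4.43 to 433 on the type I axis, with the PKI BCC libraries at the upper end and PKI Con replicates 2 and 3 at the lower end.

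Type I and type II keratins, which pair in filaments, kept close to the same ratio over this range. Summed per kilobase, the type I genes ran from 4.43 to 433 and the type II genes from 3.40 to 392 CPM per kb over the 21 libraries. Their ratio lay between 1.03 and 1.78, with a mean of 1.19 ± 0.167 (SD, n = 21). It was 1.23 ± 0.0705 (SD, n = 3) in PKI Con and 1.19 ± 0.0613 (SD, n = 4) in PKI BCC. As a description, the 21 pairs among the 7 testable genes had Pearson r between 0.819 and 0.994 over the 21 libraries (median 0.925), and a median of 0.849 after each group's mean was removed. The points share libraries and depth, so no p is given.

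The make-up of the type I sum was not the same in all groups. Krt26 made up 4.00% ± 0.853 (SD, n = 4) of it in PKI BCC, with the lowest library at 2.88%, and at most 1.97% in each of the other 17 libraries. The share of Krt25 was 40.8% ± 4.34 in PKI BCC and 49.3% ± 9.45 in PKI Con, overlapping, and lay between 51.2% and 68.8% in the 14 libraries of the other models. Krt28 gave 25.8% ± 5.18 in PKI BCC and 29.8% ± 12.4 in PKI Con, against 8.13% to 18.0% in the other models. PKI Con replicate 1 lay inside the range of the other models for both (Krt25 60.2%, Krt28 17.9%), and PKI Con replicates 2 and 3 lay outside it (Krt25 44.4% and 43.3%, Krt28 29.0% and 42.6%). Within the type II sum Krt71 gave 65.8% to 85.5% in every library and Krt73 13.9% to 28.9%.

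**Figure D4:**
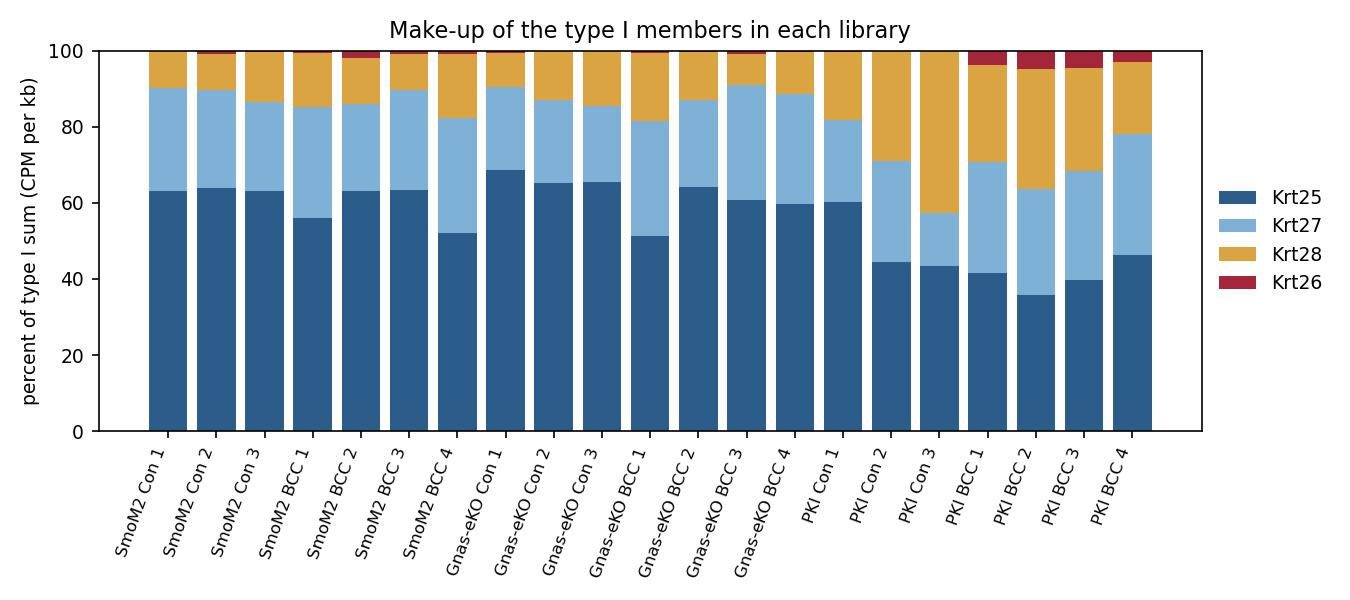
Share of each type I keratin in the type I sum (percent of CPM per kb, stacked to 100) in each of the 21 libraries. Krt25 is the largest share in every library, and Krt26 is visible as a thicker band, 2.88% to 4.83%, in the 4 PKI BCC libraries.

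Counts of Krt25 and Krt27 rest on the estimated split described above, and Krt25 took 62.2% to 65.0% of their summed counts in PKI BCC and 68.1% to 80.6% in the other 17 libraries. Whether the split itself moved with the groups was not tested.

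Other genes of the inner root sheath rose in part with the keratins in PKI. Of 7 listed, 5 rose in PKI and 0 fell, where 18.7% of all genes were called higher and 15.8% lower. Among them Padi1 and Padi3 passed the filter on low counts in PKI only through the BCC libraries, where they are high. Their lowest PKI controls were at 0.180 and 0.253 CPM, and their calls are not counted as support. Padi3 and Padi1, enzymes that turn arginine of sheath proteins into citrulline, rose by 4.82 (SE 0.58) and 4.10 (SE 0.37) on the log2 scale. Tchh, which encodes trichohyalin, the protein that fills inner root sheath cells, rose by 4.15 (SE 0.64), with 36.3 ± 32.0 CPM (SD, n = 3) in Con and 640 ± 131 CPM (SD, n = 4) in BCC. The lowest Tchh tumour library, at 540 CPM, was far above the highest control, at 73.2 CPM. Cux1 and Dlx3, transcription factors of the follicle, rose by 1.31 and 1.08. Tgm3, a transglutaminase that cross-links sheath proteins (0.21), and Gata3, a transcription factor needed for the sheath (0.01), did not pass the test.

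In SmoM2, where 16.2% of genes were called higher and 13.5% lower, 2 of the 7 rose (Gata3, 0.67, and Cux1, 0.59) and 2 fell (Tgm3, by 1.00, and Dlx3, by 1.28). In Gnas-eKO, where 1.46% were called higher and 0.165% lower, 0 rose and 1 fell, Tgm3, by 1.21 (SE 0.23, adjusted p = 0.0475), a call that was lost without Gnas-eKO Con replicate 1 or 2, where 0 genes were called. Tchh (-1.01 in SmoM2, -0.18 in Gnas-eKO) and Padi3 (-1.27 and -0.02) passed in neither model.

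**Figure D5:**
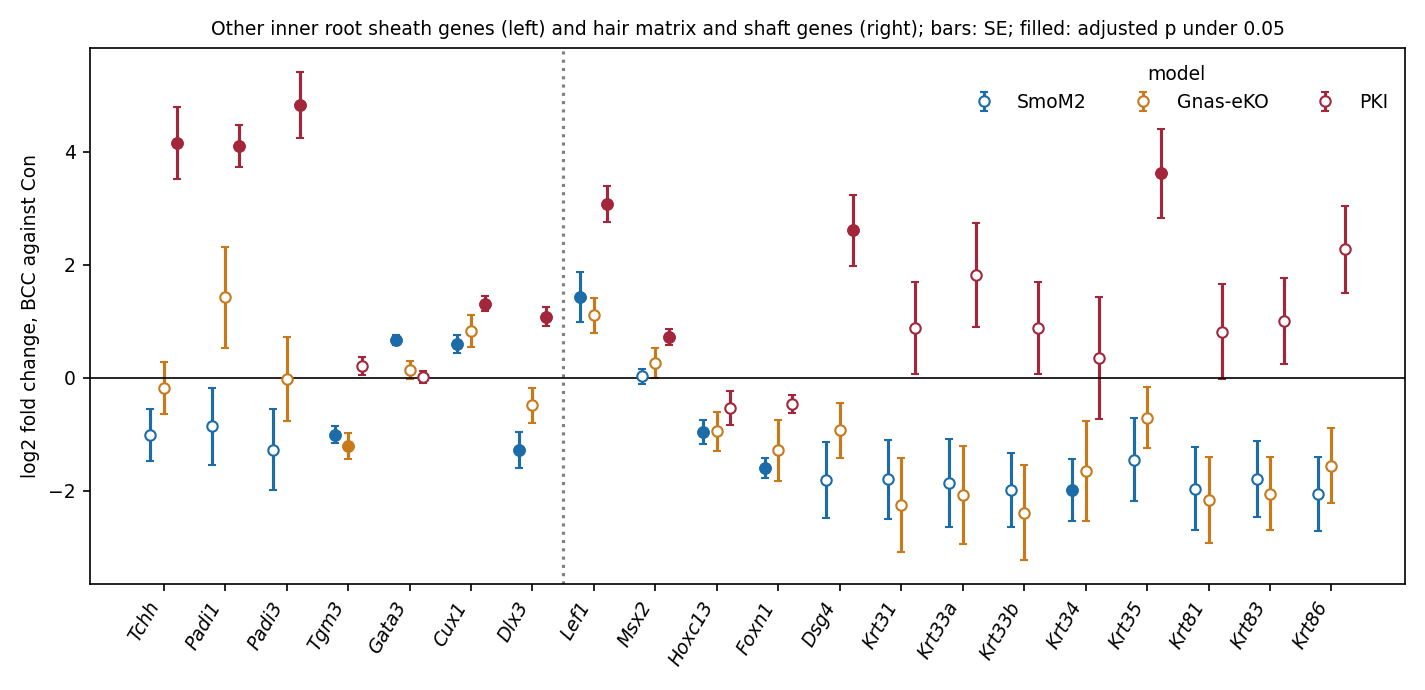
Log2 fold change of BCC against Con (vertical axis) for 7 other inner root sheath genes (left of the dotted line) and 13 hair matrix and shaft genes (right), in the 3 models. Bars are standard errors and filled points passed adjusted p under 0.05; Tchh, Padi1 and Padi3 lie above 4 in PKI, and the PKI points of Hoxc13 and Foxn1 lie below 0, unfilled.

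Of 13 genes tested of the hair matrix and shaft, the parts of the follicle inside the sheath, 4 rose in PKI and 0 fell, where 18.7% of all genes were called higher and 15.8% lower: Krt35, an early hair keratin (3.61), Lef1, the Wnt-responsive transcription factor (3.07), Dsg4, a desmoglein of the shaft (2.61), and Msx2, a matrix transcription factor (0.73). Lef1, Dsg4 and Msx2 are named because they passed. Of the 3 most abundant of the list, Hoxc13 (-0.54, adjusted p = 0.219) and Foxn1 (-0.46, adjusted p = 0.0576), transcription factors of shaft differentiation, did not pass, and Krt35 did. In SmoM2 1 rose (Lef1, 1.43) and 3 fell (Hoxc13, Foxn1 and Krt34), where 16.2% of all genes were called higher and 13.5% lower. In Gnas-eKO 0 of 13 passed, where 1.63% of all genes did. The median log2 fold change of the list was -1.79 in SmoM2 and -1.55 in Gnas-eKO, against 0.88 for PKI.

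Genes of the companion layer and outer root sheath, which surround the inner root sheath, moved both ways in PKI, where 3 of 6 rose and 2 fell, against 18.7% and 15.8% of all genes. Krt75, the companion layer keratin, rose by 3.49 (SE 0.30, adjusted p = 0.000323) and is named for that. Lhx2, a stem cell transcription factor, rose by 1.55, and Krt15, a keratin of basal and bulge cells, fell by 0.94. Sox9, an outer root sheath transcription factor, was at 0.08 (adjusted p = 0.468). In SmoM2, where 16.2% of all genes were called higher, 3 of 6 rose and 0 fell, Sox9 (1.19) and Lhx2 (2.64) among them. In Gnas-eKO, where 1.46% were called higher, 1 rose and 0 fell.

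The genes most like the keratins in pattern were ranked by Pearson r with the mean log2 CPM of the 7 testable keratins over the 21 libraries, among 17688 genes. The first 10 were Tchh (r = 0.989), Padi3 (0.984), Crym (0.958), Tspan32 (0.948), Krt35 (0.945), Gm49425 (0.943), Ggt1 (0.943), Actbl2 (0.933), Padi4 (0.919) and Cldn14 (0.913). The eleventh had 0.907 and the gene at rank 100 had 0.827, so the order has no gap after the first 10. With group means removed, Tchh was at 0.954 and Cldn14 at 0.669. They were picked for matching the keratins in these libraries, and no count of calls among them is given. In PKI their log2 fold changes ran from 2.29 (Ggt1) to 4.83 (Cldn14), as a description.

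The nearest genes on either side of each row behaved otherwise in PKI, with 1 exception. Beside the type I row, Krt24 fell in PKI by 2.91 on the log2 scale (SE 0.53, adjusted p = 0.00847), Krt222 did not pass (adjusted p = 0.882), and Krt10, the type I keratin of suprabasal epidermis, was at -0.52 (adjusted p = 0.474). Beside the type II row, Krt5, the basal keratin, fell by 0.24 (SE 0.07, adjusted p = 0.0339) and Krt2, a late epidermal keratin, by 2.37 (SE 0.55, adjusted p = 0.0189). Krt1, the pairing partner of Krt10, is the exception and rose by 1.80 (adjusted p = 0.0414). In SmoM2 Krt24 (by 1.58), Krt10 (by 0.81), Krt5 (by 0.31) and Krt2 (by 1.80) fell, and in Gnas-eKO none of these 6 passed. The other 2 nearest entries, Gm11940 within Krt10 and Gm44323 within Krt5, were too low to test in PKI, and since the use of strand in counting is not given, their reads cannot be told apart from those of their hosts.

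Markers of other cells moved with the PKI keratins, in counts to be read against 18.7% of all genes called higher and 15.8% lower in PKI. Of 6 leukocyte genes 5 rose in PKI and 0 fell, and their sum went from 41.3 to 103.5 CPM over the controls to between 228 and 440.0 CPM over the tumours. Among those that rose, Lyz2 (0 to 0.420 CPM in PKI Con) passed the filter on low counts only through the BCC libraries. Its call is not counted as support. Of 6 fibroblast genes 3 rose and 0 fell, with sums of 15.8 to 43.5 CPM in Con and 84.4 to 145 CPM in BCC. Lum, among the fibroblast genes that rose, passed the filter likewise only through the BCC libraries (0 to 0.355 CPM in PKI Con) and is not counted as support. In SmoM2, where 16.2% of all genes were called higher, 2 of the 6 fibroblast genes rose and 0 fell, with sums of 17.2 to 39.8 CPM in Con and 387 to 525 CPM in BCC. Most of that sum was Dcn (mean 439.6 CPM in SmoM2 BCC), while Col1a1 (0.36, adjusted p = 0.575) and Col3a1 (-0.07, adjusted p = 0.955) did not pass. Of 5 sebaceous genes 2 fell in PKI and 0 rose, and of 5 melanocyte genes 4 fell and 0 rose. Endothelial genes summed to 1.52 to 3.90 CPM in PKI Con and 4.36 to 6.47 CPM in PKI BCC, without overlap. Of the 4, Vwf rose in PKI (2.02, adjusted p = 0.0111) and in SmoM2 (1.47, adjusted p = 0.0224), Pecam1 did not pass in PKI (0.69, adjusted p = 0.0874), and Cdh5 and Kdr were too low to test. In PKI Vwf passed the filter on low counts only through the BCC libraries (lowest control 0.126 CPM), so that call is not counted as support. The part of these cells in the keratin result was not tested.

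PKI Con replicate 1, the control with the most keratin RNA, also differed from the other 2 controls in these sums. Its hair matrix and shaft sum was 359 CPM against 184 and 141, its sebaceous sum 6329 against 3488 and 3526, and its leukocyte sum 103.5 against 47.0 and 41.3. Its fibroblast sum was 43.5 CPM against 15.8 and 20.5, its endothelial sum 3.90 against 1.52 and 2.10, and its keratinocyte sum 47380 against 63960 and 64930. The part of these differences in its keratin level was not tested. Without it all 7 keratins were called in PKI.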

How the data were processed

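Per the submitters' processing notes, bcl2fastq 2.20, cutadapt 1.18, STAR 2.7.0f and Partek were used with mm10. The steps, the annotation and the use of strand in counting are not given in the sources used here. The labels' protocols give a stranded mRNA preparation. The authors deposited estimated counts per gene, of which 72.1% were whole (tolerance 0.001); they were rounded, and the smallest gene total was 10. A second table, which the authors deposited as normalized signal, served as an alternative with limma 3.58.1 (log2 of value plus 1).

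BCC was compared with Con within each model, and the effects between models, with edgeR 4.0.16 (R 4.3.3): robust quasi-likelihood test, filterByExpr by group, TMM, Benjamini-Hochberg over all genes tested, called at adjusted p under 0.05. SE is the log2 fold change over the square root of F. Log2 CPM used a prior count of 2. Exon lengths and loci came from GENCODE vM21 on GRCm38, and promoters from RefSeq GRCm38.p6. Alternatives were DESeq2 1.42.0, its size factors in edgeR, no filter, all 21 libraries in 1 fit, a replicate block, and leaving out each library. No replicate pair was a duplicate. The fits were tested on simulated data, with the recovered shares in the text.

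The genes and lists were chosen with earlier results of these data known. Named were all 8 keratins, the other inner root sheath genes, the 3 most abundant of the hair matrix and of the companion and outer root sheath lists, the 2 nearest genes on each side and the 10 most alike.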

Additional observations from a re-analysis of the deposited data

Results flagged for a closer look

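Krt72 in PKI BCC replicate 2 was far from the other 3 tumours of its group. It had 11.1 CPM against 4.32 CPM in the next library, a gap of 0.881 of the group's range, which is past the 95% critical value of Dixon's test. It was the only one of 24 groups of 4 libraries (8 genes in 3 models) that passed this test, which chance passes in about 1 group of 20. Without that library the log2 fold change of Krt72 in PKI was 3.52 (adjusted p = 0.00756).

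The PKI effect differed from the SmoM2 effect for 7 keratins by edgeR's interaction test, where 24.9% of genes were called and 12.6% called higher. The sign was positive in PKI and negative in SmoM2, where edgeR called none of the keratins. The SmoM2 signs of Krt26 and Krt72 turned positive without SmoM2 Con replicate 2 (0.55 and 0.37). For Krt72 the call of a difference was lost in 7 of 14 fits without 1 library. The differences on the log2 scale were 5.40 for Krt25, 8.21 for Krt26, 6.22 for Krt27, 6.06 for Krt28, 6.03 for Krt71, 4.59 for Krt72 and 5.75 for Krt73.

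The PKI effect differed from the Gnas-eKO effect for 5 keratins by the same test, where 9.06% of genes were called and 4.49% called higher. The differences were 7.02 for Krt26, 4.64 for Krt27, 4.91 for Krt28, 4.75 for Krt71 and 4.53 for Krt73. Without Gnas-eKO Con replicate 1 only Krt28 was called. Day and batch differ between the models and cannot be told apart from them.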

How the results depend on the processing

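Depth limits Krt72, Krt26 and Krt74 most, since 3 counts are up to 0.189 CPM and many Con libraries lie near it. The 7 PKI keratins kept a positive direction in all alternatives and in all fits without 1 library. Krt25 in PKI was not called with no filter on low counts (adjusted p = 0.0702).

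In SmoM2 the members called were 1 with DESeq2 and 4 with a replicate block (Krt25, Krt27, Krt28 and Krt73, all lower). Of all genes DESeq2 called 5307 there, 2515 of them lower, and the block 3428, 1444 of them lower. Genes called in Gnas-eKO were 1535 with DESeq2, 2644 in the joint fit and 135 with the block. For the Gnas-eKO against SmoM2 difference they were 212 with DESeq2, 66 in the joint fit and 48 with limma. For the PKI against Gnas-eKO difference they were 2389 with DESeq2 and 925 with the block. The cause was not tested.

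The labels do not pair the replicate numbers. Over all genes tested, deviations of same-numbered Con and BCC libraries correlated at -0.127 to -0.0867 in SmoM2, 0.0411 to 0.184 in Gnas-eKO and -0.0662 to 0.282 in PKI. Values from so few libraries cannot decide whether the numbers mark pairs. In SmoM2 the block lowered the SE of Krt25 from 0.72 to 0.17. With the block 2 keratins, Krt26 and Krt72, were called in PKI, where 5988 genes were called in all. The other 5 had adjusted p from 0.0565 to 0.121. In the PKI against Gnas-eKO difference the block called 1 keratin. The block turned the log2 fold change of Krt26 in SmoM2 (8.49e-05) and of Krt28 (0.12) and Krt71 (0.072) in Gnas-eKO, none of which was called.

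Leaving out 1 library at a time, genes called ranged from 3613 to 4627 in SmoM2, 0 to 1910 in Gnas-eKO and 4057 to 5466 in PKI, and members called from 0 to 1, 0 to 0 and 4 to 7. For PKI against SmoM2 the ranges were 3401 to 4429 genes and 6 to 7 members, for PKI against Gnas-eKO 673 to 2512 and 1 to 6, and for Gnas-eKO against SmoM2 14 to 79 genes. The 4 keratins called without PKI BCC replicate 1 exclude Krt25, Krt71 and Krt73.

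Signs turned in such fits for genes that were not called. In SmoM2 they were Krt26 (-0.90 to 0.55) and Krt72 (-1.06 to 0.37), both without Con replicate 2. In Gnas-eKO they were Krt25 (-0.89 to 0.19), Krt27 (-0.43 to 0.73), Krt28 (-0.42 to 0.10), Krt71 (-0.82 to 0.35) and Krt72 (-1.28 to 0.25). For Gnas-eKO against SmoM2 it was Krt72 (-0.76 to 0.90).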
